A study of Mus musculus with 4 samples.

Results

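The dentate gyrus (DG) of mice given 11 sessions of electroconvulsive stimulation (ECS) was set against that of sham-treated mice, with both dissected 1 h after the last session. Described here are the 11690 probe sets, of 22626 on the array besides controls, that carried a single gene symbol and a signal over 50 on at least 1 of these 2 arrays. They stand for 7639 of 12393 genes, and a gene was represented by its brightest probe set among them. The 2 probe sets nearest to the limit were those of Mapk8, with signals of 50.1 (sham) and 49.0 (11 ECS), just inside, and Blzf1, with 50 and 44.9, just outside.

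All mice were C57Bl/6, and by the study's methods males bought at 8 weeks of age. The sham mice were handled once under isoflurane with no current. The 11 ECS mice received bilateral currents of 25 mA for 1 s through ear clips, at 100 pulses per s of 0.5 ms, with 4 sessions a week. A single ECS (1 h) and 10 ECS (48 h) were measured on 1 array each and are given beside the comparison, because the 11 ECS mice had a course of earlier sessions and a fresh stimulus while the sham mice had neither. The number of earlier sessions under anaesthesia thus goes with the currents and cannot be told apart from them. Groups follow the titles, sources and treatment fields. Descriptions given as free text are at odds with these for 3 of the 4 samples, and the one of the 11 ECS sample names fluoxetine.

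Each array held pooled RNA of 3 mice, so there was no replicate array in any group. No difference below has a test, a p-value or a spread between animals, and "higher" and "lower" describe these 2 arrays. The one error that can be measured is the disagreement between probe sets of the same gene. Its SD was 0.235 on the log2 scale, over 5995 probe sets of 2430 genes, and it covers probe sets and not arrays or mice.

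The granule cells (GCs) of the DG are the excitatory neurons that relay cortical input into the hippocampus through mossy fibres. A seizure makes them fire together, and within minutes they transcribe immediate early genes (IEGs). These include regulators of transcription and effectors that act at synapses or are secreted. Mature GCs carry the calcium buffer calbindin and release dynorphin and glutamate, and in rodents seizures are known to alter their enkephalin and neuropeptide Y.

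The 11 ECS array was dimmer as a whole. The median log2 ratio of the 7107 genes with over 50 on both arrays was -0.23, which is 1.17-fold lower, and 82% of these genes lay below 0. The middle 50% of genes lay between -0.42 and -0.07. The shift went with brightness. Its median was -0.29 in the 2765 genes with mean signals from 100 to 300 and -0.14 in the 981 genes at 1000 or more. Array medians over all probe sets were 69.3 for sham, 56.3 for a single ECS, 62.4 for 10 ECS and 56.7 for 11 ECS, and 51.9 to 55.1% of probe sets were over 50. Gene ratios below are those of the deposited signals, and list medians are given relative to the median of all genes.

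On the deposited scale, 56 of the 7639 genes (0.733%) were at least 2-fold higher after 11 ECS and 109 (1.43%) were at least 2-fold lower. With both arrays brought to the same median these counts were 86 (1.13%) and 40 (0.524%), so which direction held more genes turned with the scaling. The shares of 0.733% and 1.43% are the reference for the counts of list members below. The largest differences were upward on the deposited scale, where 17 genes were at least 4-fold higher and 2 were at least 4-fold lower. Signals of 50 or less were taken as 50, and a ratio against such a signal is a bound. Of the 56 higher genes, 11 had a sham signal at or under 50, and of the 109 lower genes, 17 had an 11 ECS signal at or under 50.

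**Figure D1:**
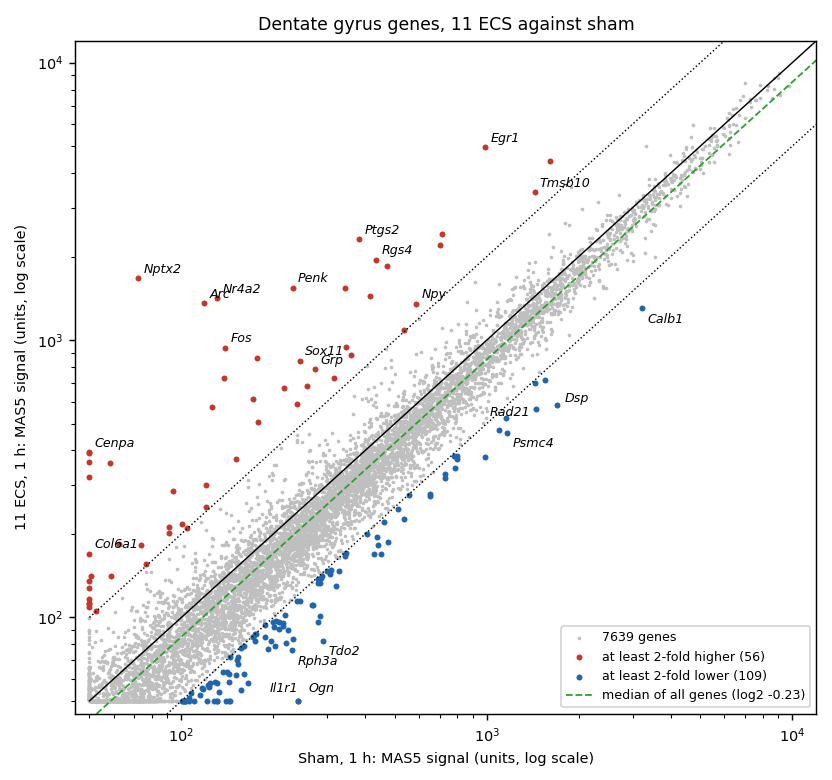
MAS5 signal of 7639 genes on the sham array (x axis, signal units, log scale) and on the 11 ECS array (y axis, the same), with signals of 50 or less drawn at 50. The solid line marks equal signals, the dotted lines 2-fold and the dashed green line the median of all genes at log2 -0.23, and the 56 higher genes (red) reach farther from the solid line than the 109 lower genes (blue).

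IEGs made up most of the strongest upward differences. Among early transcription factors, 10 of the 23 members with a signal over 50 were at least 2-fold higher and 0 were lower, against 0.733% and 1.43% of all genes. Their median stood 1.00 log2 units above that of all genes, and 22 of 23 lay above it. The list holds 28 genes, of which 4 were at or under 50 on both arrays and Npas4 had no probe set under that symbol. A gene seen only on the array where it was high could pass the limit of 50 and so had to differ. This holds, in either direction, for members of the other lists that are known only by a bound. Over all 27 genes with a probe set, those at the limit on both arrays were put at a ratio of 0. Their median then stood 0.82 above that of the 7107 genes over 50 on both arrays. All 12393 genes so counted stood 0.22 above the same reference. Values over 4 arrays are given in the order sham, single ECS, 10 ECS at 48 h and 11 ECS.

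Nr4a2, an orphan nuclear receptor that acts as an early transcriptional activator, had signals of 131, 2009, 128 and 1415. It was 10.8-fold higher after 11 ECS than after sham, and its other probe set gave a log2 ratio of 2.29. The related receptor Nr4a1 gave 177, 1833, 103 and 860.3, 4.87-fold higher. Fos, the AP-1 subunit used to map active neurons, gave 139, 1833, 82.8 and 937 and was 6.73-fold higher. Egr1, a zinc finger regulator with a high resting level in the hippocampus, was 5.02-fold higher at 988, 5713, 539 and 4963. For these 4 genes both arrays taken 1 h after a stimulus were high and both others low, and the 10 ECS array was the lowest of the 4. Ier5, a regulator of the heat shock response, differed from them in that its 10 ECS signal lay above sham, at 343, 1897, 522 and 1544. The 11 ECS over sham ratio of Ier5 was 4.51-fold.

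Several early factors were at or under 50 without a recent stimulus, so that only a bound can be given. Atf3, a stress-induced repressor of the ATF/CREB family, had 15.4, 520.2, 1.90 and 393 and was at least 7.85-fold higher. Fosb, the AP-1 subunit whose truncated form builds up with repeated stimulation, had 20.6, 618, 11.9 and 362 and was at least 7.24-fold higher. Egr2 had 12.3, 423, 6.60 and 321 and was at least 6.41-fold higher, with a second probe set at 1.0, 175, 0.9 and 209. The remaining factors of the 10 were Junb, at 183 against 62.7 after sham (2.92-fold), and Egr4, at 109 against 26.5 (at least 2.18-fold). The list member farthest below was Cebpd, a factor of the acute phase response, with 459, 239, 395 and 329 and a ratio of -0.48. It was the 1 member below the median of all genes.

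The 300 bases around the transcription start are shown for the early genes with the highest ratios or bounds that have an entry (Nr4a2, Atf3 and Fosb) and for 2 neuropeptide genes described below (Npy and Gal), to set both classes of higher genes side by side. They come from RefSeq on GRCm38.p6 and run 5′ to 3′ on the gene's strand, from 250 bases before the start to 50 after it. Capitals mark the core TGACG of the cyclic AMP response element (CRE), read on either strand. Its match in a window is a description of letters and not of a bound site. The Nr4a2 window lies at chr2:57123954-57124253 (minus strand), Atf3 at chr1:191183284-191183583 (minus), Fosb at chr7:19309996-19310295 (minus), Npy at chr6:49822460-49822759 (plus) and Gal at chr19:3414495-3414794 (minus).
Nr4a2: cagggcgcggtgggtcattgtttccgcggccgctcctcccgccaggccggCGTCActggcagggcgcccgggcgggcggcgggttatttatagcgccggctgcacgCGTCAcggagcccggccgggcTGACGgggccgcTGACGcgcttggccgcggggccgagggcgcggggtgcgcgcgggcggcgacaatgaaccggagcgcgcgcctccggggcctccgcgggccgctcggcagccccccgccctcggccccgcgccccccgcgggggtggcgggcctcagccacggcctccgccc
Atf3: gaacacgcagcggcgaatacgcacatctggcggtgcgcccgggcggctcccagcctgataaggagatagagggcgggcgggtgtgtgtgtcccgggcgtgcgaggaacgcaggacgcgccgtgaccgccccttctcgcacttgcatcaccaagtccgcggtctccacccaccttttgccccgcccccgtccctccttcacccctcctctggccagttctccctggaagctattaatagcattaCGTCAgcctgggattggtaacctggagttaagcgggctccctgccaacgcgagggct
Fosb: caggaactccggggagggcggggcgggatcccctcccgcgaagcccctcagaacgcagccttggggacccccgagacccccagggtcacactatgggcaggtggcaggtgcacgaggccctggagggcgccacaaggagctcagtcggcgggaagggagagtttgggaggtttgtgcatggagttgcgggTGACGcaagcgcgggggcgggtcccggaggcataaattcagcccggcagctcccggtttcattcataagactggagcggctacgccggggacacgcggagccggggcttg
Npy: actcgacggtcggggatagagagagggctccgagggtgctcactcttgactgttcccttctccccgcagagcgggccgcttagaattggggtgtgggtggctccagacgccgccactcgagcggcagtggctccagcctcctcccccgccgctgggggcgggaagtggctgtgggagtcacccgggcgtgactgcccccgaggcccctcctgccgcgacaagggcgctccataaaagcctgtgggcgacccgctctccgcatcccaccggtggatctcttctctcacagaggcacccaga
Gal: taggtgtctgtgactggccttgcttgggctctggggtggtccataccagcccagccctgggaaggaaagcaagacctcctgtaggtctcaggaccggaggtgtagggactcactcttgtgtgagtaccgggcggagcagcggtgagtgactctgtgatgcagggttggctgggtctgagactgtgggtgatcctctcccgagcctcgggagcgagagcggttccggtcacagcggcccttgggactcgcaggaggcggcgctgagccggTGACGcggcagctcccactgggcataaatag
The core occurred at 4 places in the Nr4a2 window, at 1 in those of Atf3, Fosb and Gal, and at 0 in that of Npy.

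Over all genes at least 2-fold higher, 31 of 75 windows (41.3%) held the CRE core. It was in 20.8% of all 32851 mouse windows, in 32.1% of the windows of the 7639 genes and in 20.2% of the 129 windows of the genes at least 2-fold lower. Among windows of early transcription factors and effectors the share was 53.3% (24 of 45). The full palindrome TGACGTCA, which contains the core, was in 4% of windows of higher genes and 3.02% of windows of the 7639 genes. The AP-1 site TGANTCA was in 4% and 4.8%. The core of the serum response element was in 5.33% of windows of higher genes, in 4 windows that all belong to 1 gene, and in 1.49% of those of the 7639 genes. Several windows can belong to 1 gene, so these shares do not count independent genes.

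The effectors included the largest ratio among genes over 50 on both arrays. Of 16 activity-regulated effectors over 50, 12 were at least 2-fold higher and 0 lower, against 0.733% and 1.43% of all genes. Their median stood 2.01 above that of all genes, 16 of 16 being above it. Of the 22 genes listed, 5 were at or under 50 on both arrays and Vgf had no probe set under that symbol. Over the 21 with a probe set, the median stood 1.46 above the same reference, beside 0.22 for all 12393 genes so counted. Nptx2, a secreted pentraxin that gathers AMPA receptors at synapses, had 72.1, 1305, 127 and 1674. This was 23.2-fold higher, the highest ratio among the 7107 genes over 50 on both arrays, and its second, dimmer probe set (18.9, 82.4, 27.1 and 115) gave a log2 ratio of 1.20 with the sham signal taken as 50. Genes known only by a bound, such as Atf3, Egr2 and Homer1, have no place in that order. Nptx2 was also brighter after 11 ECS than after a single ECS, which was not so for most of the list. Arc, which promotes removal of AMPA receptors from the synapse, had 119, 3569.6, 67.5 and 1360.1 and was 11.5-fold higher. Ptgs2, the inducible cyclooxygenase, had 381, 3002, 530.1 and 2310.4, a 6.06-fold difference that its second probe set placed at a log2 ratio of 2.87 against 2.60 for the first.

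Secreted factors were among them. Inhba, the activin beta A subunit, gave 126, 947, 114 and 572 and was 4.53-fold higher. Bdnf, the neurotrophin that acts through TrkB, gave 471, 2069, 640.4 and 1851 and was 3.93-fold higher, with a log2 ratio of 2.11 for its second probe set beside 1.97. Both were several times brighter on the arrays taken 1 h after a stimulus. Within the lists to which they belong, these were the members that stood out. In the activin, TGF-beta and Smad list, 1 of 17 was 2-fold higher (Inhba) and 1 lower, the activin receptor Acvr2a at 786, 438, 457 and 347, with a list median 0.09 above all genes that quantile normalization placed 0.09 below (-0.09). Acvr2a was not 2-fold lower with the arrays at the same median. Smad7, the inhibitory Smad, was at 179 against 95.8 in sham and the receptor Acvr1 at 766 against 562. In the neurotrophin and growth factor list 1 of 9 was 2-fold higher (Bdnf) and 0 lower, with a median 0.36 above all genes. There the angiogenic factor Vegfa was at 182 against 126 in sham, and Ntrk2, the receptor of BDNF, at 689 against 579.

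Intracellular effectors followed the same order of arrays, with exceptions. Gadd45b, linked to active DNA demethylation in the DG, gave 172, 1472, 164 and 613 (3.56-fold). Rgs4, which shortens signalling by Gi and Gq proteins, gave 435, 1373, 813 and 1950.1 and was 4.48-fold higher, with log2 ratios of 1.98 and, as a bound with the sham signal taken as 50, 1.93 from its other probe sets. The 11 ECS array was its brightest, and its 10 ECS signal was already above sham. Cdkn1a, the cell cycle inhibitor p21, was brightest after 11 ECS as well, at 90.9, 161, 40.0 and 212 (2.34-fold). Per1, a clock gene that also responds to CREB, gave 258, 1099, 228 and 683 (2.65-fold). For Homer1, a scaffold whose short form is induced by activity, 1 probe set gave 3.30, 264, 5.50 and 116 and was at least 2.33-fold higher. Its other 2, each at or under 50 on 1 of the 2 arrays, gave log2 bounds of 0.22 and -0.04. Different probe sets of a gene can read different transcript forms, and which forms these read was not tested.

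Outside both lists, Sertad1, Frmd6 and Cenpa stood among the 15 highest ratios or the highest bounds, as did Penk, Col6a1, Gfap and Igfbpl1, which are given with the genes of their lists. Sertad1, a coactivator of E2F factors, gave 58.5, 720.3, 85.1 and 359 (6.14-fold). Frmd6, an upstream member of the Hippo pathway, gave 138, 897, 173 and 729.6 (5.28-fold). The signal of Cenpa, the centromeric histone H3 variant, was 45.8, 1238, 25.6 and 395, at least 7.90-fold higher. No other gene over 50 in the cell cycle list shared that. Of these 12, Cenpa was the 1 that was 2-fold higher and 0 were lower. The list median was 0.03 below all genes, or 0.03 above after quantile normalization. The list has 26 genes with a probe set, and those at or under 50 on both arrays could not be read. Cdkn1a, given above, and Rprm, given below, are outside this list. Mcm6, a subunit of the replicative helicase, lay lowest at 164 against 328 in sham, just inside 2-fold. Its second, dimmer probe set was past 2-fold lower, at 90.6 against 231 in sham (log2 -1.35).

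Genes that restrain MAP kinase and cytokine signals by feedback were divided. Of 11, Spry2 and Dusp1 were at least 2-fold higher and Spry1 at least 2-fold lower, and the median stood 0.33 above all genes. Spry2, which restrains receptor tyrosine kinase signalling, had 345, 1471, 375 and 947 (2.74-fold). Dusp1, a phosphatase of MAP kinases, had 151, 588, 106 and 371 (2.46-fold). Dusp6, the ERK phosphatase, at 406, 1184, 316 and 804, and Errfi1, an inhibitor of the EGF receptor, at 467, 1785, 362 and 931, were just under the limit with ratios of 0.99 and 1.00. Spry1, a relative of Spry2, lay the other way at 102, 54.4, 68.6 and 44.1, at least 2.04-fold lower. With the arrays at the same median, 4 of the 11 were 2-fold higher and 0 lower.

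**Figure D2:**
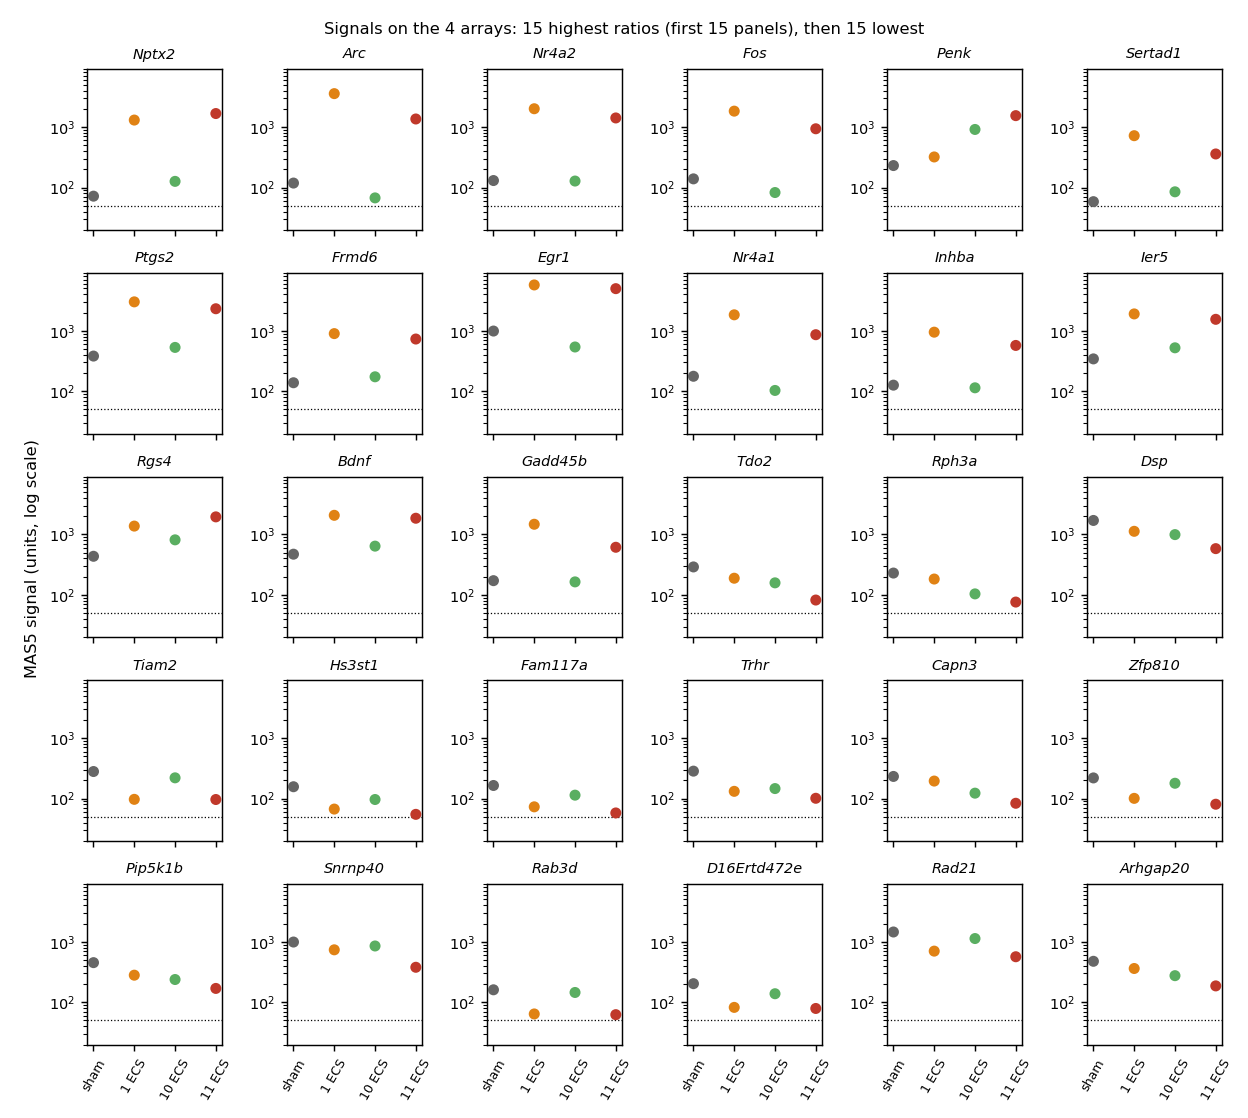
MAS5 signal (y axis, signal units, log scale) on the 4 arrays (x axis: sham, single ECS, 10 ECS at 48 h, 11 ECS, 1 pooled array each) for the 15 highest and then the 15 lowest ratios of 11 ECS over sham among genes over 50 on both arrays. The dotted line marks 50. For Fos, Arc, Nr4a1 and Egr1 the sham and 10 ECS points are low and the other points high, whereas Penk is lowest on the sham array and highest on the 11 ECS array.

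The ratio of 11 ECS over sham is by arithmetic the sum of what 10 ECS left after 48 h (10 ECS over sham) and what followed the 11th session (11 ECS over 10 ECS). The 2 parts share the 10 ECS array, so an error in it moves them in opposite directions. By the paper's methods, these arrays used the RNA of its Fos measurement. In that measurement, mice given 10 ECS received a sham session or an 11th ECS and were examined 1 h later. The labels give only 48 h after 10 ECS. By the paper's account, both arrays of the first part thus followed a sham session, and the second part sets the 11th ECS against a sham session. For the 44 of 56 higher genes that were over 50 on all 4 arrays, the medians of these parts were 0.12 and 1.49, beside -0.14 and -0.10 for all 6931 such genes. Most of the upward differences thus lay in the part that followed the 11th session. A smaller group of higher genes lay almost wholly in the first part.

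Neuropeptide precursors were in that second group. Of 13 precursors over 50, Penk, Grp, Npy and Gal were at least 2-fold higher and 0 were lower, against 0.733% and 1.43% of all genes. Gal and Tac2 were over 50 only on the 11 ECS array, so they could lie only upward. Pdyn was over 50 only on the sham array, so it could lie only downward. The list median was only 0.23 above all genes, so the difference belonged to these 4 and not to the list. Penk, the precursor of the enkephalins, gave 231, 321, 913 and 1545 and was 6.69-fold higher, with log2 parts of 1.98 from the course and 0.76 after the 11th session. Grp, the gastrin-releasing peptide precursor, gave 275, 296, 755 and 784 (2.85-fold), with parts of 1.46 and 0.05. Npy, the precursor of neuropeptide Y, gave 586, 608, 1320.2 and 1350.0 (2.31-fold), with parts of 1.17 and 0.03. Gal, the galanin precursor, gave 39.0, 39.3, 114 and 113 and was at least 2.25-fold higher. For Grp, Npy and Gal the sham and single ECS arrays were close to each other and low, and the 10 and 11 ECS arrays close to each other and high. Penk differed in that its 11 ECS signal also stood well above its 10 ECS signal.

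Among the precursors below the median of all genes was Pdyn, the dynorphin precursor of mossy fibres, at 83.3 after sham and 50 after 11 ECS, a bound of -0.74 on the log2 scale and at least 1.67-fold lower. Pnoc, the nociceptin precursor, gave 74.5, 71.8, 81.6 and 80.3. The granins and prohormone processing enzymes, which build and fill dense core vesicles, lay above the median of all genes in 8 of 8 members, with a list median 0.26 above it and 0 past 2-fold. Scg2, secretogranin II, came nearest to the limit at 1892, 3026, 2151 and 3563 (1.88-fold), and it was high on both arrays taken 1 h after a stimulus. Chgb, chromogranin B, was at 5956 against 4748 in sham (1.25-fold).

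Genes of immature neurons were in part in the same group. Of 15 over 50, Sox11, Igfbpl1 and Tmsb10 were at least 2-fold higher and 0 lower, against 0.733% and 1.43% of all genes. Igfbpl1 was over 50 on the 11 ECS array and not on the sham array, so it could lie only upward. In the list, 14 of 15 lay above the median of all genes (12 after quantile normalization), with a list median 0.36 above it. Sox11, a transcription factor of newborn neurons, gave 244, 499, 323 and 843 (3.46-fold). It was higher on both arrays taken 1 h after a stimulus and highest on the 11 ECS array. Tmsb10, an actin-sequestering thymosin, gave 1433, 1456, 3397 and 3414 (2.38-fold), with 2 other probe sets at log2 1.25 and the dimmest, under 50 after 11 ECS, at a bound of -0.62. Igfbpl1 gave 49.6, 47.0, 107 and 127, at least 2.54-fold higher. The single ECS array was close to sham for both, and the 11 ECS array close to the 10 ECS array. Doublecortin (Dcx), the usual marker of newborn GCs, gave 91.1, 69.1, 138 and 137 (1.50-fold), and its second probe set gave a log2 ratio of -0.32. The member farthest below was Nnat, neuronatin, at 187, 154, 188 and 96.0 (-0.96).

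Other genes higher after both courses included some of the extracellular matrix and of glia. Rprm, a p53 target that arrests the cell cycle, gave 316, 194, 978 and 727 (2.30-fold), with the 10 ECS array the brightest. Col1a2, a chain of type I collagen, gave 59.0, 60.6, 151 and 141 (2.39-fold). Pcolce, which aids procollagen cleavage, gave 52.5, 54.5, 119 and 105 (2.01-fold), and Col6a1, a chain of type VI collagen, 38.8, 53.2, 164 and 169.8 (at least 3.40-fold). Gfap, the intermediate filament of astrocytes, gave 49.3, 45.6, 114 and 135 (at least 2.70-fold), and its second probe set 56.3, 44.0, 85.9 and 109 (log2 0.96). For all 5 genes the 10 and 11 ECS arrays exceeded the sham and single ECS arrays. These signals were mostly dim.

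**Figure D3:**
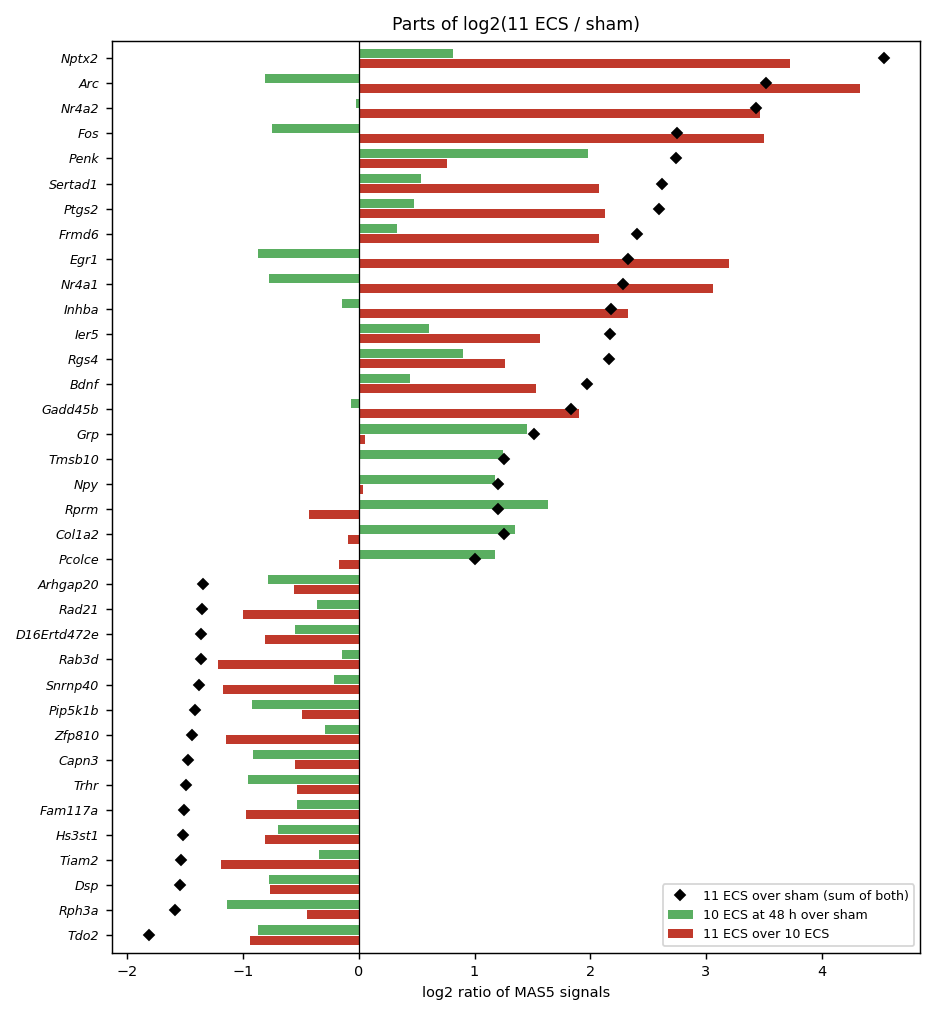
Parts of log2(11 ECS / sham) on the log2 scale (x axis): 10 ECS at 48 h over sham (green bars), 11 ECS over 10 ECS (red bars) and their sum (black diamonds), for 36 genes over 50 on all 4 arrays. The first 15 genes are the highest ratios, the next 6 are genes whose difference lay in the green part (Grp to Pcolce), and the last 15 are the lowest ratios, with both bars below 0.

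On the lower side the 4 mature GC markers stood out. All 4 were at least 2-fold lower, also with the arrays at the same median, and their median was 1.45 below that of all genes. The study used these genes as its markers of mature GCs under the same treatment, so their direction is not independent evidence. Calb1, calbindin, gave 3234, 2747, 1507 and 1304 (2.48-fold lower), and its dimmer probe set gave 306, 238, 110 and 73.8 (log2 -2.05). Dsp, the desmosomal protein desmoplakin, gave 1702, 1125, 993 and 582 (2.92-fold lower), with -1.52 for its second probe set beside -1.55. Tdo2, tryptophan 2,3-dioxygenase, gave 290.2, 189, 158 and 82.3 (3.53-fold lower), and its second, dim probe set a bound of -0.56 on the log2 scale. Il1r1, the interleukin 1 receptor, gave 241, 85.1, 165 and 49.4 and was at least 4.82-fold lower. For each the sham array was the brightest and the 11 ECS array the dimmest. Calb1 lay mostly in the course part (-1.10 of -1.31), Dsp in near-equal parts (-0.78 and -0.77), and Il1r1 mostly after the 11th session (-0.55, then a bound of -1.72). In dissected tissue, fewer cells of a type and less RNA per cell cannot be told apart.

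The general identity genes of GCs, listed as a check of the dissection, were divided. Of 12, 9 had a probe set under the listed symbol, and Rfx3 among them was under 50 on both arrays. Of the 8 over 50, 0 were past 2-fold either way, near the shares of all genes (0.733% higher and 1.43% lower). Of these 8, 4 lay above and 4 below the median of all genes, and the list median was 0.00 away from it. Prox1, the factor that specifies GCs, gave 68.6, 69.8, 57.1 and 62.7, so close to the floor of 50 that a fall could hardly show. C1ql3, a secreted synaptic organizer, gave 4200.3, 3575, 3420.0 and 3313. Neurod1, a proneural factor that is also in the immature neuron list, gave 1086, 1301, 947 and 1238. The member farthest below was Neurod2, another such factor, at 605, 593, 488 and 324 (-0.90), with Lct next at 406 against 692 in sham. Stxbp6 was the farthest above, at 264 against 191.

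Further genes of the 15 lowest ratios were of mixed function. Rph3a, rabphilin, a Rab3 effector at synaptic vesicles, gave 229.8, 183, 104 and 76.2 (3.02-fold lower). It was the 1 of 18 vesicle and exocytosis genes past 2-fold, and the median of that list was 0.04 below all genes, with the complexin Cplx2 at 3557, 3014, 2135 and 1994 (-0.84) and the calcium sensor Syt1 at 181 against 314 in sham. Tiam2, a Rac exchange factor, gave 280.2, 97.2, 220.4 and 96.6 (2.90-fold lower). Trhr, the receptor of thyrotropin-releasing hormone, gave 284, 132, 147 and 101 (2.81-fold lower). Pip5k1b, a kinase that makes PIP2, gave 452, 280.4, 238 and 169 (2.67-fold lower), and its other 2 probe sets gave -1.04 and -1.26.

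These genes fell into classes by their arrays. Rad21, a cohesin subunit, was low on both arrays taken 1 h after a stimulus, at 1451, 701, 1131 and 566 (2.56-fold lower), with other probe sets at -1.02 and -0.17. The pattern of Tiam2 was the same, as was that of Rab3d, a vesicle GTPase (161, 64.1, 145 and 62.4), of the zinc finger gene Zfp810 (219.7, 101, 179 and 80.7), of Oprl1, the nociceptin receptor (321, 176, 279.5 and 130.3), and of the ETS factor Elk1 (306, 143, 365 and 144). Dimmer probe sets gave log2 ratios of -0.61 for Oprl1 and -0.56 for Elk1, and a bound of -0.16 for Rab3d. Psmc4, a subunit of the proteasome cap, was instead low on both arrays after a course, at 1165, 948, 430.3 and 462 (2.52-fold lower), but its second probe set gave 536, 542, 470 and 467 (log2 -0.20). The factor Zbtb16 (461, 255, 201 and 221), the cytokine Il33 (283, 189, 126 and 134), the P450 Cyp4f15 (131, 114, 50.5 and 58.2) and the factor Sp4 (153, 85.9, 63.4 and 68.1) were also lowest on the arrays after a course, with the single ECS array between these and sham. The share already seen after a single ECS differed. Log2 of single ECS over sham was -0.85 of -1.06 for Zbtb16, -0.84 of -1.17 for Sp4 and -0.58 of -1.08 for Il33. It was only -0.20 of -1.17 for Cyp4f15 and -0.30 of -1.33 for Psmc4. Relative to the median of all genes, Elk1, Zbtb16, Il33, Cyp4f15 and Sp4 lay between -0.83 and -0.94, so inside 2-fold. For the 91 of 109 lower genes over 50 on all 4 arrays the medians of the parts were -0.62 and -0.56, so that neither part held most of the difference.

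The remaining genes of the 15 lowest were Hs3st1, a heparan sulfate sulfotransferase (2.86-fold lower), Fam117a (2.85-fold), Capn3, a calpain protease (2.78-fold), Snrnp40, a spliceosome protein (2.61-fold), D16Ertd472e (2.57-fold) and Arhgap20, a GTPase activator (2.55-fold). Snrnp40 had a second probe set at only -0.55. Among bounds, Ogn, a small proteoglycan of connective tissue, gave 241, 176, 33.4 and 21.5 and was at least 4.81-fold lower. Its second probe set gave 101, 102, 16.8 and 5.60, so both were dim on the arrays after a course. The next lower genes known only by a bound ran from Enpp4 (at least 2.88-fold) through Ryr1, a calcium release channel, Tenm1, Cacng5 and Mtrr to Nrde2 (at least 2.55-fold).

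The matrix and cell type lists were read for other cells in the dissected tissue. Their counts past 2-fold stand against 0.733% higher and 1.43% lower of all genes, so a count of 0 is near that background. In the extracellular matrix list, 2 of 20 were 2-fold higher (Col1a2 and Col6a1) and 1 lower (Ogn), with a median 0.26 above all genes. Leptomeningeal and mural markers hold Ogn and Col1a2 too: 1 of 8 was higher and 1 lower, the median was 0.07 below all genes, and the summed signal of the list was 1963 on the sham array and 1722 on the 11 ECS array. Col1a2 and Ogn thus lay on opposite sides. Of these markers Acta2, smooth muscle actin, was at 262 against 205 in sham and Dcn, decorin, at 123 against 86.2. The part of the surrounding membranes in the ratios of Ogn and the collagens was not tested.

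Astrocyte markers had 1 of 10 2-fold higher (Gfap) and 0 lower, a median 0.20 above all genes and summed signals of 13608 (sham) and 12470 (11 ECS), with Aqp4 at 1373 against 1077 in sham. Interneuron markers had 1 of 10 higher (Npy) and 0 lower, a median 0.16 above all genes and summed signals of 8814 and 8505. Sst, somatostatin, gave 851, 857, 808 and 849, so it did not share the ratio of Npy. Microglia markers had 0 of 9 past 2-fold, a median 0.23 above all genes and sums of 3534 and 3461. Oligodendrocyte markers had 0 of 11 past 2-fold, a median 0.17 below all genes and sums of 9950 and 8684. Endothelial markers had 0 of 7 past 2-fold, a median 0.22 above all genes and sums of 909 and 932.

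Pyramidal cell markers of CA1 and CA3, regions next to the DG, had 0 of 6 past 2-fold, a median 0.06 below all genes and summed signals of 3134 (sham) and 2814 (11 ECS), with Neurod6 at 930.1 against 1234 in sham. Only 2 of 10 choroid plexus and ependymal markers were over 50, with sums of 225 and 190. Ttr, the transthyretin of the choroid plexus, gave 67.2, 216, 103 and 76.9. Markers of pyramidal cells, astrocytes and interneurons were thus detected on both arrays, and the tissue was not of GCs alone.

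The sterol biosynthesis list lay on 1 side without large ratios. All 18 members over 50 were above the median of all genes, also after quantile normalization, 0 were past 2-fold as deposited, and the list median was 0.49 above it. Relative to all genes, its parts were 0.56 from the course and 0.01 after the 11th session. Cyp51, the lanosterol demethylase, gave 238, 365, 325 and 428 (1.80-fold), and Idi1, the isopentenyl diphosphate isomerase, 409, 548, 568 and 666 (1.63-fold). Msmo1, a sterol oxidase, gave 607, 687, 817 and 906, and Sc5d, a desaturase, 218, 298, 297 and 315.

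**Figure D4:**
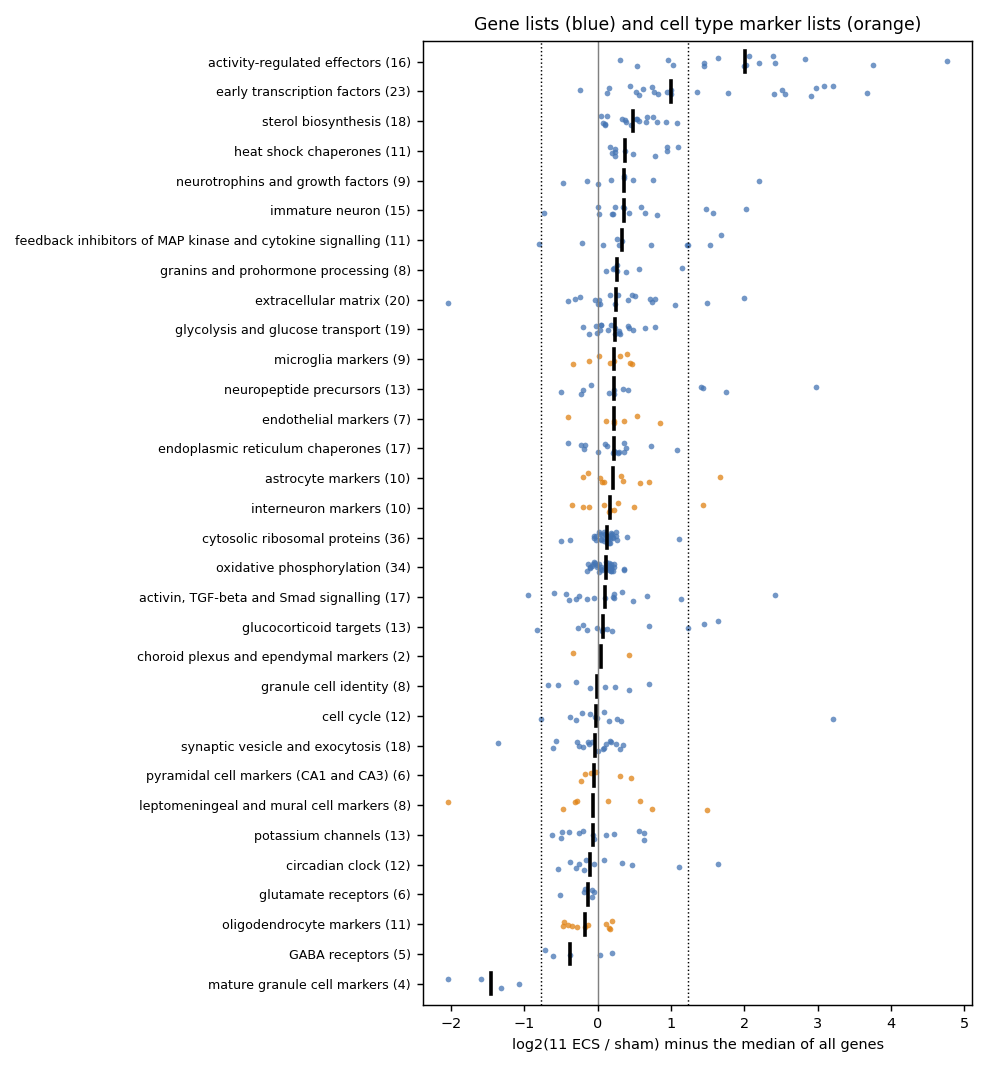
log2(11 ECS / sham) minus the median of all genes (x axis) for each member over 50 of 24 gene lists (blue) and 8 cell type marker lists (orange), ordered by their medians (black bars), with the number of members in brackets and dotted lines at 2-fold on the deposited scale. Activity-regulated effectors (2.01) and early transcription factors (1.00) are at the upper end and mature granule cell markers (-1.45) at the lower end, with most lists within 0.4 of 0.

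Where a gene had several probe sets they mostly lay on the same side. Of the 52 genes past 2-fold with more than 1 probe set (15 higher, 37 lower), the others lay on the same side of the median of all genes in 44, and 0 had another probe set 2-fold the opposite way. All other probe sets were past 2-fold as well in 9 of the 15 higher genes and in 7 of the 37 lower genes.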

How the data were processed

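RNA of the dentate gyrus was pooled from 3 mice per group. Per the labels, the authors amplified 100 ng of it by in vitro transcription for Mouse Genome 430A 2.0 arrays and computed signals with Microarray Suite 5.0, listed as MAS5 in the submitters' processing notes. The deposited values are linear MAS5 intensity values, 1 per probe set and array. How arrays were scaled to each other is not stated in the labels or methods, and the 2% trimmed means of the 4 arrays ran from 207 to 239. Detection and change calls were not used here. Precision is limited by the number of arrays: 1 in each group, which allows no test.

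Gene symbols came from the annotation of the array. Of 22626 probe sets besides 64 controls, 20380 had a single symbol, 691 several and 1555 none, and 0 symbols were updated. Members had over 50 on at least 1 of the 2 arrays, and signals of 50 or less were set to 50. A gene took its brightest member probe set over the 4 arrays. Log2 ratios, counts past 2-fold and list medians were computed with Python 3.11.15, pandas 2.3.3 and numpy 2.4.6, in scripts tested on simulated data. Promoter windows are those of RefSeq (GRCm38.p6). They were found for 6251 of the 7639 genes, with none for Nptx2, Arc or Penk.

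Named genes were the 15 highest and 15 lowest ratios over 50 on both arrays, up to 8 bounds in each direction, up to 4 members of each list farthest from the median of all genes, up to 6 genes past 2-fold with the largest parts, and 9 genes set by name (Arc, Calb1, Dsp, Egr1, Fos, Gadd45b, Il1r1, Nr4a1 and Tdo2). Cebpd, Junb, Egr4, Spry1, Pdyn, Gal, Prox1, C1ql3, Sst, Sgk1 and Mt1 fall outside this rule and were chosen after their values were seen. The members and the 24 gene lists and 8 marker lists were chosen with earlier results of these data known. Alternatives were another floor, no filter, other scalings and other ways to combine probe sets.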

Additional observations from a re-analysis of the deposited data

How the results depend on the processing

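The counts depended on the scaling and the floor. The 56 higher genes became 86 with the arrays at the same median, 89 after quantile normalization, and 115 with the same median and a floor at the 25th percentile of signals (12). The 109 lower genes became 40, 39 and, with that floor alone, 175. They became 60 with a floor of 100 and 200 when each probe set was counted on its own. With the same median and the floor at the 25th percentile together, their count lay nearer to 109 than 40 or 39 did. A floor of 100 moved the median of early transcription factors to 0.75 above all genes and that of mature GC markers to 1.19 below (-1.19). Without a filter, effectors stood at 1.46, beside 0.22 for all genes so counted. The medians of these lists kept their direction under every alternative run. That of neuropeptide precursors did so too, but without a filter it stood at 0.232, beside 0.224 for all genes so counted. Its direction there does not set the list apart from all genes. Of 158 named genes, 50 moved by less than 1 SD between probe sets under each of the 6 alternatives that give a single gene a value, and 108 moved more under some. Signals near 50 limit what dim genes can show. No paired analysis was possible because each group has 1 array, and for the same reason no array could be left out.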

Other observations

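Chaperones mostly lay above the median of all genes after 11 ECS. Heat shock chaperones did so in 11 of 11 members, with a list median 0.37 above it and 0 past 2-fold. Bag3, a partner of HSP70, gave 79.7, 118, 60.5 and 145 in the order sham, single ECS, 10 ECS and 11 ECS, and Dnajb1, an HSP40, gave 486, 1391, 461 and 800.1. Hspb1, a small heat shock protein, gave 101, 140.2, 97.4 and 166, and Hsph1 1809.9, 2201, 2178 and 2642. For Bag3, Dnajb1 and Hspb1 both arrays taken 1 h after a stimulus were the brighter ones. The dimmer probe set of Hspb1 did not share this, at 71.9, 68.1, 47.1 and 87.4, with the single ECS array below sham. Chaperones of the endoplasmic reticulum lay above in 13 of 17, with a median 0.22 above all genes and 0 past 2-fold. Hspa5, the main HSP70 there, gave 1854, 3238, 1595 and 2606, and Ddit3, the stress factor CHOP, 165, 391.7, 161 and 296. The member farthest below was Dnajc3, at 525, 375, 333 and 339 (-0.63). Its other probe sets gave log2 ratios from -0.765 to -0.178.

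Targets of the glucocorticoid receptor were divided. Of 13, 2 were at least 2-fold higher (Per1 and Cdkn1a, which also count as effectors) and 1 lower (Zbtb16), or 3 and 0 with the arrays at the same median, with a median 0.08 above all genes. Relative to all genes, the parts of this list were opposed, at -0.32 from the course and 0.52 after the 11th session. Both parts share the 10 ECS array, and an error in it would move them in opposite directions. Sgk1, a kinase induced by corticosterone and by activity, gave 1372, 3329, 1004 and 1897, and Mt1, a metallothionein, 5555, 6229, 3866 and 4919.5. In the circadian clock list 1 of 12 was higher (Per1) and 0 lower, with a median 0.11 below all genes. Per2 gave 238, 489, 236 and 436 and Arntl, the partner of CLOCK, 197, 176, 162 and 116.

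The lists of glutamate receptors, GABA receptors and potassium channels held 0 genes past 2-fold, near the shares of all genes (0.733% higher and 1.43% lower). The 6 glutamate receptor genes over 50 lay below the median of all genes in 6 of 6 (5 of 6 after quantile normalization), with a median 0.13 below it, and Gria3 the lowest at 906, 611, 603 and 538. The 5 GABA receptor genes had a median 0.38 below all genes, with Gabrd, the delta subunit of extrasynaptic receptors on GCs, at 155, 92.2, 99.3 and 80.6 and Gabra2 at 298, 249.8, 211 and 167. The 13 potassium channel genes had a median 0.07 below all genes, from Kcnk2 at 295, 209, 206 and 163 to Kcnip3, a subunit that binds Kv4 channels, at 50.1, 48.6, 70.9 and 66.4. These medians leave out the genes at or under 50 on both arrays, which were 6 of 12 glutamate receptor, 3 of 8 GABA receptor and 5 of 18 potassium channel genes. With those genes counted at a ratio of 0 the medians turned to 0.09, 0.12 and 0.16 above the same reference, above which all 12393 genes so counted stood by 0.22. So did those of granule cell identity (0.10), cell cycle (0.23), circadian clock (0.015), vesicle and exocytosis (0.01) and leptomeningeal and mural genes (0.19).

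Energy metabolism and ribosomes were close to the bright genes of the arrays, whose median lay at -0.14 against -0.23 for all genes. Oxidative phosphorylation genes (34) had a median 0.11 above all genes, cytosolic ribosomal protein genes (36) 0.12 above, and glycolysis and glucose transport genes (19) 0.23 above, with 0 past 2-fold in each list. After quantile normalization these medians were 0.00, 0.02 and 0.12. Slc16a1, a lactate transporter, gave 409.8, 961, 406 and 602, and Slc2a1, the glucose transporter GLUT1, 1085, 1589, 759 and 1294.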
